A study of Mus musculus with 30 samples.

Results

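Myelin is the stacked membrane that oligodendrocytes wrap around axons of the brain, and it raises the speed of conduction. As an oligodendrocyte matures it first switches on genes such as Cnp, Mbp and Tspan2, and genes such as Mag, Mal, Mobp and Mog are known as later ones. In the mouse forebrain much of this maturation falls in the weeks after birth. The 9 genes described here, Mbp, Mag, Mog, Mobp, Mal, Cnp, Ndrg1, Tspan2 and Qdpr, encode proteins of the myelin sheath or proteins abundant in mature oligodendrocytes. They were represented by 21 of the 36899 probe sets, which are all those whose array annotation gave a member's symbol and no other. There were 7 probe sets for Mobp, 4 for Mbp, 2 each for Mag, Ndrg1 and Tspan2, and 1 each for Mog, Mal, Cnp and Qdpr.

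The tissue was mouse V1, the primary visual cortex, at 3 ages, postnatal day 14 (P14, 3 litters), P28 (3 litters) and P60 (4 litters), all under standard rearing. It was microdissected litter by litter and its total RNA isolated with Trizol, and biotin-labelled cRNA made from 6 µg of that RNA went onto 3 Affymetrix array types, called chips A, B and C here. No genotype, strain, sex or number of animals per litter was given in the sources used here, so p-values measure the spread between these 10 litter samples. In bulk tissue, more oligodendrocytes and more RNA per oligodendrocyte cannot be told apart.

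The values are MAS5 signals, which are linear intensities. Their 2% trimmed mean, computed here from the values, was 500.1 to 500.4 on each of the 30 arrays, and no scaling target was stated. P14 litter 1 stood apart: its ratio of 3′ to 5′ probe set signal was 9.57 to 12.2 for Gapdh and 12.2 to 12.8 for Actb over its 3 arrays. On the other 27 arrays these ratios were 0.741 to 1.32 and 1.04 to 1.5. Results are therefore given with and without that litter. Where stated, they are also given in a restricted set that further leaves out P60 litters 1 and 4 on chips A and B and P60 litter 2 on chip C, arrays that correlated least with the rest. Of the 21 probe sets, 19 passed the filter on low signals and were tested. Of these, Mag 161846_r_at alone had no P14 array above the chip median and passed through later arrays only. Mobp 99046_at had 1 such P14 array, that of P14 litter 1, so without that litter its remaining P14 arrays lay below the median. The 2 untested probe sets, for Cnp and Mbp 137621_at on chip C, were above the chip median on no array at all. Log2 changes are on the scale of log2(signal + a constant of 38.6 on chip A, 57.8 on B or 44.0 on C), which understates changes of dim probe sets. A call means an adjusted p under 0.05 in limma over all 20724 tested probe sets.

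Between P14 and P28 the myelin genes stood higher at the later age in their means, and between P28 and P60 they had no common direction. With 1 probe set per gene, the 8 tested genes all had a log2 change above 0 from P14 to P28, with a median of 1.10, where 54.0% of all 11240 tested genes were above 0 with a median of 0.04. From P28 to P60, 4 of the 8 were above 0. Over the whole span from P14 to P60, all 8 were again above 0, with a median of 1.10 against 0.05 for all genes. Over that span Mag rose on 1 of its 2 probe sets, Ndrg1 on both and Mobp on 1 of its 7. These calls depended on single litters, as described below.

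**Figure D1:**
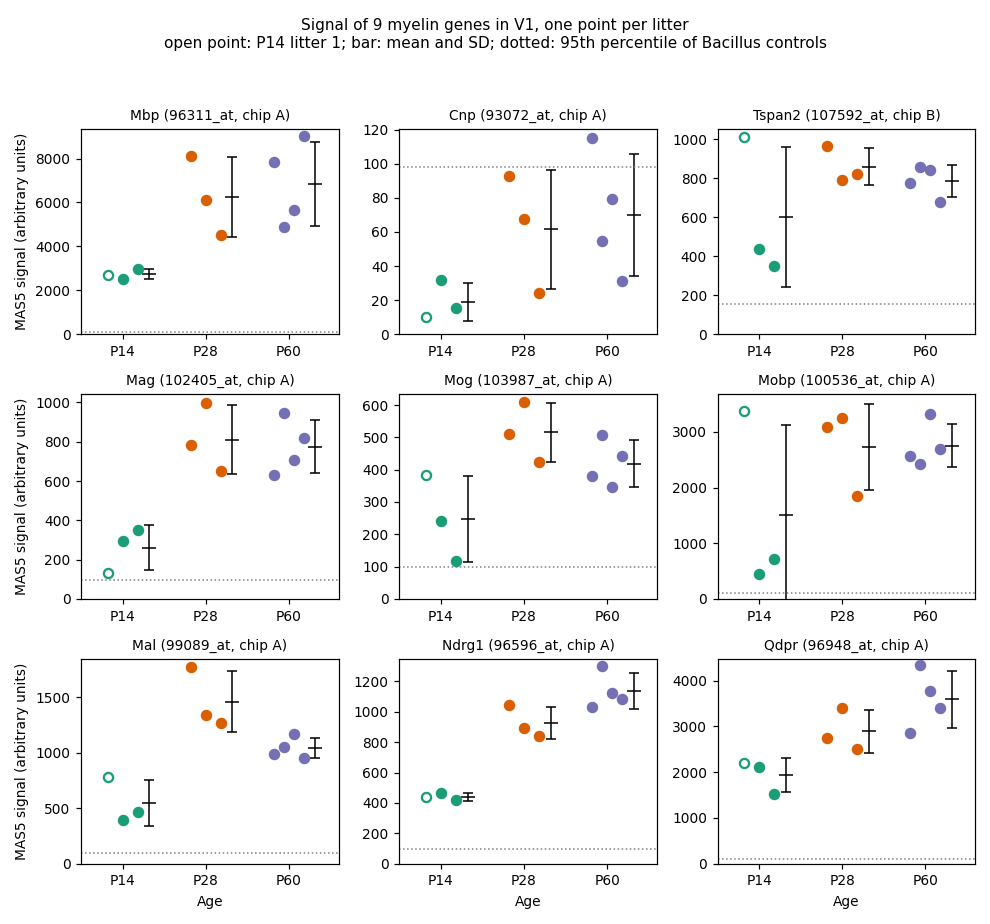
MAS5 signal (linear scale, vertical axis) of the probe set kept for each of the 9 genes in every litter (points, in litter order within an age) at P14, P28 and P60, with bars for the mean ± SD (n = 3, 3 and 4), the lower end of which is cut at 0 for Mobp at P14, and a dotted line for the Bacillus level of the chip. For Mbp, Mag, Mog, Mal, Ndrg1 and Qdpr every P28 point lies above every P14 point, P14 litter 1 (open) is the highest point for Mobp and Tspan2, and all Cnp points but that of P60 litter 1 lie below the dotted line.

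Mbp encodes myelin basic protein, which holds the inner faces of the myelin membrane together. Its brightest probe set (96311_at) read 2681, 2519 and 2973 in the P14 litters, 8133, 6102 and 4520 at P28, and 7830, 4887, 5646 and 9010 at P60. All P28 and P60 litters lay above all P14 litters, and the ranges at P28 and P60 overlapped. The mean went from 2724 ± 230 (SD, n = 3) to 6252 ± 1811 (n = 3) and 6843 ± 1909 (n = 4). The log2 change was 1.15 (standard error 0.279, adjusted p = 0.308) from P14 to P28 and 1.28 (0.261, adjusted p = 0.0613) from P14 to P60. When P14 litter 1, which for Mbp read like its age group, was left out, the second value was 1.27 and passed (adjusted p = 0.0325). Over all alternatives the adjusted p of that change ran from 0.00275 to 0.211.

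The other Mbp probe sets had smaller log2 changes. On 96310_at the litters read 899, 749 and 954 at P14, 841, 1470 and 1364 at P28, and 1051, 1217, 1845 and 1081 at P60. Here P28 litter 1 lay among the P14 litters, while every P60 litter lay above them, and the log2 change from P14 to P60 was 0.53 (adjusted p = 0.331). The Mbp gene also gives golli transcripts, which other cells make too, and which transcripts each probe set reads was not analysed here. On chip C, 166476_r_at had log2 changes of 0.47 (adjusted p = 0.814) from P14 to P28 and 0.40 (0.599) from P14 to P60. The untested 137621_at had means below 252 at each age, the 95th percentile of the Bacillus control transcripts on that chip, which serve as a measure of background. The means of 166476_r_at lay below that level at P14 (170) and P60 (239) and near it at P28 (257).

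Mobp encodes a small basic protein on the cytoplasmic side of the myelin membrane in the brain. The probe set kept for it (100536_at) read 3376, 441 and 717 at P14, 3084, 3258 and 1845 at P28, and 2572, 2428, 3322 and 2702 at P60. P14 litter 1 was the highest of all 10 litters, and the other P14 litters were the lowest. With all litters the log2 change was 1.32 (standard error 0.549, adjusted p = 0.594) from P14 to P28 and 1.37 (0.513, adjusted p = 0.235) from P14 to P60. When P14 litter 1 was left out, Mobp rose by 2.16 (0.264, adjusted p = 0.0094) and 2.21 (0.251, adjusted p = 0.00215), and the ratio of the mean signals at P28 and P14 went from 1.81 to 4.72. Over all alternatives the adjusted p ran from 0.000815 to 0.993 for the first comparison and from 0.00109 to 0.447 for the second.

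The 7 probe sets of Mobp did not move alike. On 99046_at the signal was 226, 135 and 150 at P14, 689, 510 and 372 at P28, and 689, 430, 564 and 927 at P60, with no overlap between P14 and the later ages. Its log2 change was 1.41 (adjusted p = 0.235) to P28, and it rose by 1.70 (standard error 0.287, adjusted p = 0.0308) from P14 to P60. On 99047_at the values were 280, 972 and 774, then 2541, 1668 and 1171, then 737, 862, 1293 and 920. The mean of that probe set was highest at P28, and 2 of the 4 P60 litters lay within the range of P14 litters 2 and 3. Its log2 change was 1.45 (adjusted p = 0.397) to P28 and -0.85 (0.894) from P28 to P60. The partner probe set 99048_g_at had changes of 1.60 (adjusted p = 0.287) and -0.16 (0.971) over the same steps.

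The 3 Mobp probe sets on chip B had small log2 changes from P14 to P60 with all litters, 0.20 on 106452_s_at, 0.35 on 106453_i_at (adjusted p = 0.499) and -0.43 on 116999_at (0.56). On 116999_at the signal was 2281, 583 and 807 at P14, 1301, 1152 and 1034 at P28, and 823, 679, 863 and 653 at P60. P14 litter 1 was again the highest of the 10, and without it the change was 0.71 (adjusted p = 0.232) to P28 and 0.12 (0.785) to P60. Every P60 litter lay below every P28 litter on 116999_at and on 106453_i_at. Suffixes g, i, r and s mark probe sets that may be shared by several transcripts or were selected less strictly, and which Mobp transcripts they read was not analysed here.

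**Figure D2:**
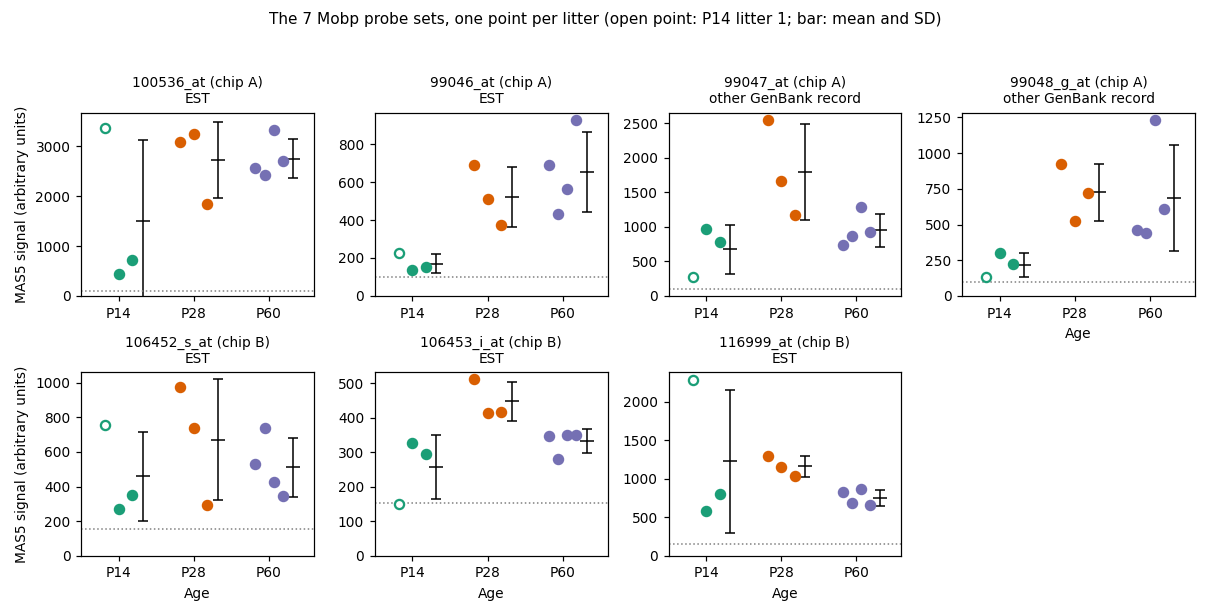
MAS5 signal (linear scale, vertical axis) of the 7 Mobp probe sets in every litter (points, in litter order within an age) at P14, P28 and P60, with bars for the mean ± SD (n = 3, 3 and 4), cut at 0 where they would pass it. P14 litter 1 (open) is the highest P14 point on 100536_at, 99046_at, 106452_s_at and 116999_at and the lowest on 99047_at, 99048_g_at and 106453_i_at.

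Mag encodes an adhesion molecule of the innermost myelin membrane, facing the axon. The signal on 102405_at was 133, 295 and 353 at P14, 781, 999 and 652 at P28, and 630, 945, 709 and 817 at P60. Every later litter lay above every P14 litter, and the P28 and P60 ranges overlapped. The mean went from 260 ± 114 (SD, n = 3) to 810 ± 175 (n = 3) and 775 ± 137 (n = 4). Mag rose by 1.51 (standard error 0.284, adjusted p = 0.0461) from P14 to P60, and the change to P28 was 1.57 (0.304, adjusted p = 0.162). P14 litter 1 was here the lowest of the 10 litters, and without it the change to P60 was 1.16 (adjusted p = 0.0235) and that to P28 1.21 (0.0821). The second Mag probe set (161846_r_at) had changes of -0.04 (adjusted p = 0.992) to P28 and 0.38 (0.61) from P14 to P60, with no separation of the ages.

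Mog encodes a protein of the outermost myelin surface, a known target of autoantibodies. Its signal was 384, 242 and 117 at P14, 511, 609 and 425 at P28, and 381, 508, 345 and 441 at P60. All P28 litters lay above all P14 litters, while P60 litters 1 and 3 lay below P14 litter 1. The log2 change was 1.05 (standard error 0.325, adjusted p = 0.444) to P28 and 0.78 (0.304, adjusted p = 0.25) from P14 to P60. Leaving out P14 litter 1 gave 1.39 (adjusted p = 0.111) and 1.12 (0.0513). In the restricted set the change to P28 passed (adjusted p = 0.0499), and over all alternatives its adjusted p ran from 0.00508 to 0.99.

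Mal encodes a proteolipid that carries membrane to the growing sheath. Its signal was 781, 398 and 462 at P14, 1772, 1339 and 1270 at P28, and 988, 1054, 1164 and 956 at P60. The ages did not overlap at all, with P28 on top, P60 in the middle and P14 at the bottom. The mean went from 547 ± 205 (SD, n = 3) to 1460 ± 272 (n = 3) and 1041 ± 91.5 (n = 4). The log2 change was 1.39 (standard error 0.25, adjusted p = 0.145) to P28, -0.46 (0.234, adjusted p = 0.894) from P28 to P60, and 0.93 (0.234, adjusted p = 0.108) from P14 to P60. Once P14 litter 1, the highest P14 litter, was left out, Mal rose by 1.66 (adjusted p = 0.00576) to P28 and by 1.20 (0.0102) to P60, and the adjusted p ran from 0.000136 to 0.682 and from 0.00172 to 0.259 over all alternatives.

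The 250 bases before the transcription start are shown for Mobp, Mag, Mal and Mog, the genes counted here as late, taken from RefSeq on GRCm38.p6. RefSeq windows from 250 bases before to 50 bases after a start were matched for 7 of the 9 genes, 10 windows in all, the others being Mbp and Ndrg1. Each is printed from 5′ to 3′ on the gene's strand, and capitals mark matches to short motifs searched on both strands. The motifs were ACAAAG and ACAATG (bound by SOX factors such as SOX10), CTGGCAC (bound by MYRF, a regulator of myelin genes), CAGCTG (an E-box), GGGCGG (a GC box) and TATAAA.
Mobp (chr9:120149492-120149741, plus strand): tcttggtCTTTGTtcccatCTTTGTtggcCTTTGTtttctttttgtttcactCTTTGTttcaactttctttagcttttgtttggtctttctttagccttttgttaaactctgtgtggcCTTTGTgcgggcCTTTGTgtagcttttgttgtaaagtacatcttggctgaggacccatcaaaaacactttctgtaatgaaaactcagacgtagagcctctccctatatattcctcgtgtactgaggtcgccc
Mag (chr7:30914864-30915113, minus strand): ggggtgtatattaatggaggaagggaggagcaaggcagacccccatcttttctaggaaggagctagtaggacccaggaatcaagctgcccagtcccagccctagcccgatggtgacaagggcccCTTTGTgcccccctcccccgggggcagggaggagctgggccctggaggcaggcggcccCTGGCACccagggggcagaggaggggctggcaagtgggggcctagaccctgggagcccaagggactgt
Mal (chr2:127656696-127656945, minus strand): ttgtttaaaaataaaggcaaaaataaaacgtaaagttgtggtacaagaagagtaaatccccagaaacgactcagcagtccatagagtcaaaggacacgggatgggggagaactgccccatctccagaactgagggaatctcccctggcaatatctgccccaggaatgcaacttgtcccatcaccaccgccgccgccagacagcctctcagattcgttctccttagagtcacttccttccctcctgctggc
Mog (chr17:37023399-37023648, minus strand): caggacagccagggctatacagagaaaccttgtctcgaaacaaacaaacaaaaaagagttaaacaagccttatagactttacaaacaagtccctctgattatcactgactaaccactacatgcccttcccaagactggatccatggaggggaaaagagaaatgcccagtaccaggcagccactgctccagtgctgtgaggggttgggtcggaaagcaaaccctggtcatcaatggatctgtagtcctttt
In the Mobp window ACAAAG was matched 6 times, each on the opposite strand as CTTTGT, with first bases at -243, -231, -221, -198, -132 and -120 from the start. It was the 1 window of all 32851 with that many, 0.00304% of them. The Mag sequence printed is from the first of 3 windows of that gene. It held 1 match to ACAAAG, as CTTTGT, at -126 and 1 to CTGGCAC at -68. The third Mag window and those of Mal and Mog held none of the 6 motifs. A match to ACAAAG stood in 5 of the 10 member windows, those of Cnp, Mag, Mobp and Tspan2, against 18.7% of all windows. CTGGCAC stood in 3 of the 10, of Cnp and Mag, against 5.01%, and 2 of the Mag windows overlap and share their matches. GGGCGG stood in 2 of the 10 against 35.7%, and the other SOX motif, the E-box and the TATA motif stood in 0 of the 10 against 12.6%, 16.3% and 13.6%. The matches are letters in these windows, and binding was not measured.

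Tspan2 encodes a tetraspanin, a membrane organiser that oligodendrocytes make as they begin to differentiate. On 107592_at the signal was 1013, 439 and 351 at P14, 967, 790 and 824 at P28, and 776, 856, 843 and 677 at P60. P14 litter 1 was the highest of the 10 litters and the other P14 litters were the lowest, as for Mobp. The log2 change from P14 to P60 was 0.49 (standard error 0.283, adjusted p = 0.416) with all litters. With that litter left out, Tspan2 rose by 0.90 (0.184, adjusted p = 0.0322) over that span and had a change of 1.02 (adjusted p = 0.0918) to P28, and over all alternatives the adjusted p of the change to P60 ran from 0.00575 to 0.772. The second probe set, on chip C, had means below the Bacillus level at each age.

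Cnp encodes a cyclic nucleotide phosphodiesterase of the uncompacted myelin and is a classical early marker of the lineage. Its 1 probe set read 10.3, 31.5 and 15.2 at P14, 93.1, 67.8 and 24.0 at P28, and 115, 54.9, 79.4 and 31.1 at P60. The mean of each age lay below the Bacillus level of 98.4 on chip A, so no level of Cnp was measured with it and it was not tested. Among the genes counted as early, age was therefore read from Mbp and Tspan2 alone.

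Ndrg1 encodes a cytoplasmic protein of myelinating cells, whose loss in humans gives a demyelinating neuropathy. On 96596_at the signal was 438, 469 and 417 at P14, 1042, 895 and 842 at P28, and 1029, 1304, 1126 and 1082 at P60. All later litters lay well above the P14 litters, and P14 litter 1 read like the other P14 litters. The mean went from 441 ± 26.4 (SD, n = 3) to 926 ± 103 (n = 3) and 1135 ± 120 (n = 4). Ndrg1 rose by 1.29 (standard error 0.174, adjusted p = 0.0116) from P14 to P60, and the change to P28 was 1.00 (0.186, adjusted p = 0.145). Its second probe set (160464_s_at) read 212, 365 and 415, then 895, 663 and 727, then 875, 808, 801 and 936, and rose by 1.32 (0.225, adjusted p = 0.0311) from P14 to P60. Across the 3 ages together, 96596_at was the 1 member probe set that passed limma's moderated F test (adjusted p = 0.034), where the test called 0.111% of all probe sets.

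Qdpr encodes a reductase that regenerates the cofactor tetrahydrobiopterin and is abundant in oligodendrocytes. Its signal was 2207, 2106 and 1520 at P14, 2748, 3407 and 2516 at P28, and 2856, 4335, 3782 and 3397 at P60. Every later litter lay above every P14 litter, and P28 and P60 overlapped. The log2 change was 0.57 (standard error 0.231, adjusted p = 0.585) to P28 and 0.87 (0.216, adjusted p = 0.105) from P14 to P60. Qdpr rose by 0.97 (adjusted p = 0.0323) from P14 to P60 when P14 litter 1 was left out, with a range of 0.00605 to 0.261 over all alternatives.

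The step from P14 to P28 gave values above 0 for most of the probe sets. Of the 19 tested member probe sets 17 had a log2 change above 0, with a median of 1.00 and a range from -0.27 to 1.60. Over all tested probe sets 52.9% were above 0 and the median was 0.03. Limma called 0 of the 19 in this comparison, in which it called 0.00483% of all probe sets in either direction and 0 higher at P28. An unadjusted p under 0.05 was reached by 12 of the 19, and by 1632 of 20724 overall. Every P28 litter lay above every P14 litter for 11 of the 19 (57.9%), a separation that 9.45% of all tested probe sets showed. Without P14 litter 1 this held for 14 of the 19 against 18.9%, and limma called 2, Mobp 100536_at and Mal, against 0.125% in either direction and 0.0483% higher at P28. In the restricted set it called 9, from Mag, Mal, Mbp, Mobp, Mog, Ndrg1 and Tspan2, against 1% in either direction and 0.401% higher.

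Between P28 and P60 the member probe sets did not share a direction. With all litters 8 of 19 were above 0 with a median of -0.07, against 49.0% and -0.01 for all tested probe sets. After median scaling of the arrays, which moved the median of all tested probe sets to -0.14, 4 of 19 were above 0. Limma called 0 of the 19 and 0 of all probe sets, and 1 of the 19 and 1125 of all had an unadjusted p under 0.05. The largest values were -0.85 for Mobp 99047_at, -0.59 for Mobp 116999_at and -0.46 for Mal, with adjusted p of 0.894, 0.897 and 0.894. Every P60 litter lay below every P28 litter for 3 of the 19 (15.8%), which are Mal and 2 Mobp probe sets, against 4.46% of all. The opposite separation was seen for 0 of the 19 against 3.9% of all.

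From P14 to P60, 17 of the 19 were above 0 with a median of 0.78, against 54.8% and 0.06 for all tested probe sets. After quantile normalization and after median scaling 17 of 19 were again above 0. Limma called 4, all higher at P60: Mag 102405_at, Mobp 99046_at and both Ndrg1 probe sets. In this comparison it called 0.396% of all probe sets in either direction and 0.106% higher at P60. Every P60 litter lay above every P14 litter for 9 of the 19 (47.4%) against 6.61% of all, and without P14 litter 1 for 12 of the 19 against 13.9%. Without P14 litter 1 limma called 9, from Mbp, Mag, Mobp, Mal, Ndrg1, Tspan2 and Qdpr, where it called 2.4% of all in either direction and 0.738% higher. In the restricted set it called 8, against 2.13% of all in either direction and 0.82% higher.

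The 4 calls with all litters depended on single litters. Leaving out P14 litter 2, P14 litter 3 or P60 litter 4 ended all 4. These fits called 0, 28 and 8 of all tested probe sets, where the fit with all litters called 82. The call of Ndrg1 96596_at held in the other 7 such fits, with an adjusted p of 0.00578 to 0.0574 over the 10. Mag 102405_at and Ndrg1 160464_s_at held only without P14 litter 1 or P60 litter 3, with 0.0235 to 0.143 and 0.0175 to 0.113. Mobp 99046_at held without P14 litter 1, P28 litter 3, P60 litter 2 or P60 litter 3, with 0.0125 to 0.118. With only the P14 and P60 litters in the fit none of the 4 passed, at 0.0886 to 0.145. With all litters 10 of the 19 had an unadjusted p under 0.05, against 3261 of all 20724. Over all alternatives the adjusted p ran between 0.00042 and 0.108 (Ndrg1 96596_at), 0.00172 and 0.196 (Ndrg1 160464_s_at), 0.00334 and 0.161 (Mag) and 0.000522 and 0.118 (Mobp 99046_at).

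**Figure D3:**
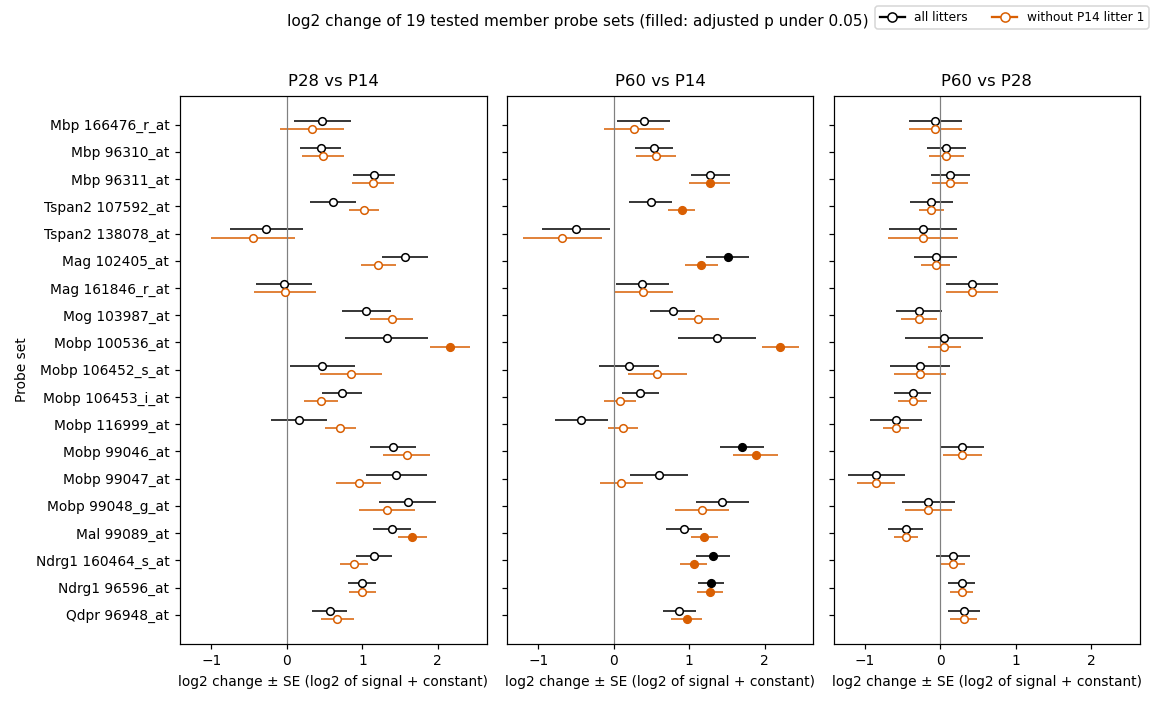
Log2 change (horizontal axis, log2 of signal plus constant, later age minus earlier age) of the 19 tested member probe sets, with bars for the standard error of limma, for P28 against P14, P60 against P14 and P60 against P28, with all litters (black) and without P14 litter 1 (orange), and filled points where the adjusted p is under 0.05. Most points of the panels for P28 and for P60 against P14 lie to the right of 0, those of P60 against P28 lie on both sides, and 4 black points, all for P60 against P14, are filled.

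Genes known as early and as late in the lineage were set side by side by the ratio of mean signals at P28 and P14. With all litters the ratio was 2.295 for Mbp and 1.43 for Tspan2, and 3.12 for Mag, 2.67 for Mal, 2.08 for Mog and 1.81 for Mobp. The early and late genes overlapped in this ratio. Without P14 litter 1 the early genes stood at 2.28 and 2.18, and the late ones at 2.50, 3.39, 2.87 and 4.72 in the same order. All 4 late genes then had larger ratios than both early genes on the kept probe sets. This order did not hold for the ratio of P60 to P14 without that litter. There Mbp stood at 2.49 and Tspan2 at 2.00, and Mag, Mal, Mog and Mobp at 2.40, 2.42, 2.33 and 4.76. The difference between early and late genes was not tested, and Cnp could not be used. The order depended on the probe sets. Without P14 litter 1, Mobp 99047_at, 106452_s_at, 106453_i_at and 116999_at had P28 to P14 ratios of 2.05, 2.16, 1.44 and 1.67, and Mag 161846_r_at 1.01. These lay below the kept probe sets of both early genes, while Mobp 99046_at and 99048_g_at, at 3.665 and 2.78, lay above them. The other tested probe sets of the early genes were low as well. They stood at 1.44 for Mbp 96310_at, 1.36 for Mbp 166476_r_at and 0.754 for Tspan2 138078_at.

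P14 litter 1 did not sit on one side of its age group. On the log2 scale it stood above the mean of the other P14 litters for 10 of the 19 member probe sets, from +2.50 on Mobp 100536_at down to +0.04 on Mag 161846_r_at, and below it for 9, down to -1.51 on Mobp 99047_at. On the linear scale its Mobp 100536_at signal was 5.83 times the mean of the other P14 litters. Other large differences were +1.65 for Mobp 116999_at, +1.25 for Tspan2 107592_at, +1.15 for Mobp 106452_s_at and +1.01 for Mog, and -1.07 for Mag 102405_at. For Mbp 96311_at and Ndrg1 96596_at it was -0.03 and -0.01. Over all tested probe sets the median was -0.01, and the 5th to the 95th percentile spanned -1.73 to 1.19, so 3 of the member probe sets lay above that span and none below it.

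The differences of P14 litter 1 were also set against the record from which each probe set had been designed. Of the 8 member probe sets designed from ESTs, which are single-pass reads often of transcript ends, 6 were higher in P14 litter 1, and of the 9 designed from other GenBank records 3 were. These are counts of probe sets and not of genes. Mobp 100536_at, 99046_at, 106452_s_at and 116999_at were among the 6, while Mobp 106453_i_at, also from an EST, was lower. Over all tested probe sets the shares were 50.3% of 13398 and 46.3% of 2762. Mobp had both kinds on chip A, with 100536_at and 99046_at from ESTs at +2.50 and +0.55, and 99047_at and 99048_g_at from another record at -1.51 and -0.81. The high 3′ to 5′ ratios of this litter stand beside these values. Where each probe set lies along its transcript was not analysed here, and the part of RNA quality in these results was not tested. The summed signal of 12 astrocyte markers was also highest in this litter, at 36634, against 17837 to 24174 in the other 9.

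**Figure D4:**
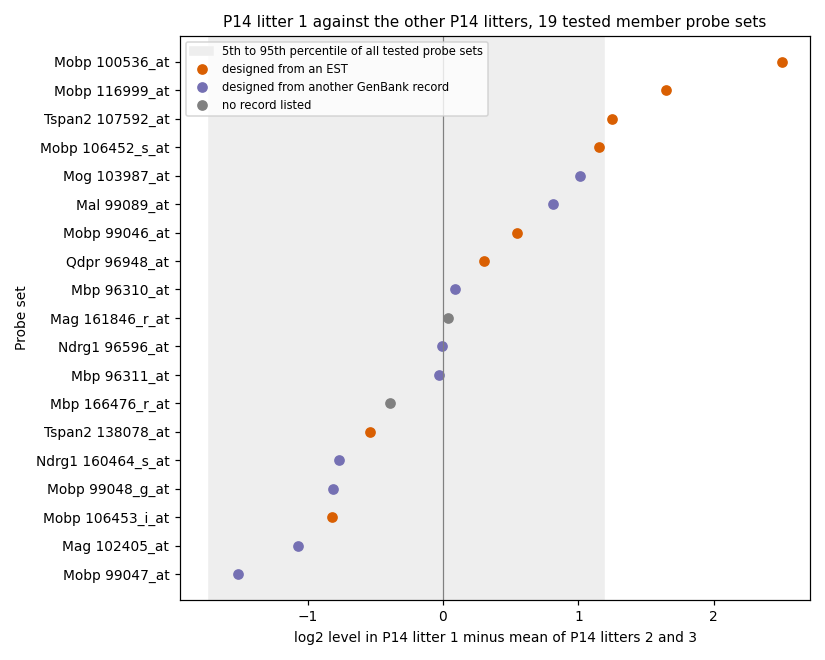
Log2 signal of P14 litter 1 minus the mean of the other P14 litters (horizontal axis) for the 19 tested member probe sets, coloured by the kind of record they were designed from, with a grey band from the 5th to the 95th percentile over all 20724 tested probe sets. Mobp probe sets lie at both ends, from -1.51 to +2.50, and those of Mbp on chip A and Ndrg1 96596_at lie near 0.

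Within an age, the order of the litters was compared across the myelin genes. P28 litter 3 was the lowest P28 litter for 7 of the 8 genes, Tspan2 being the exception, where 31.8% of all tested probe sets had it lowest. P60 litter 2 was the highest P60 litter for 5 of the 8, against 27.1% of all, but over the 19 tested member probe sets it was the lowest P60 litter for 7. The mean standardized level of the 8 genes, in SD units over the 10 litters, was 0.73, 0.65 and 0.14 in P28 litters 1, 2 and 3. At P60 it lay between 0.32 and 0.65, and at P14 it was -0.52, -1.36 and -1.58, with the first litter nearest to the later ages. The summed signal of 12 neuron markers was 53154 in P28 litter 3, against 45844 and 45862 in the other P28 litters, and its part was not tested.

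Correlations between the genes were positive over all litters and of both signs within ages. Over the 10 litters Pearson's r between pairs of the 8 genes ran from 0.24, for Mag and Tspan2, to 0.90, for Ndrg1 and Qdpr, with a median of 0.72 over 28 pairs. After each age's mean was taken away the median was 0.24 and 19 of the 28 pairs were above 0, with a range from -0.81, for Mag and Tspan2, to 0.91. Over the 7 litters of P28 and P60 the median of these deviations was 0.26, with 21 of 28 above 0 and a range from -0.39 to 0.93. The points share arrays and scaling, no such value was computed for all genes, and no test was made.

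Most other myelin genes also stood higher at P28 and P60 than at P14 in their means, with a median change below that of the 8 genes. A list of 45 further genes of the sheath and its cells had 39 on the arrays and 35 tested, with 1 probe set each. From P14 to P28, 26 of the 35 were above 0 with a median of 0.33, and from P14 to P60 27 were, with a median of 0.32, against 0.04 and 0.05 for all tested genes. From P28 to P60 15 were above 0, with a median of -0.04 against -0.02. Limma called 0 of the 35 in each of the 3 comparisons with all litters. An unadjusted p under 0.05 was reached by 12, 3 and 12 from P14 to P28, P28 to P60 and P14 to P60. Over all 20724 tested probe sets it was reached by 1632, 1125 and 3261. Leaving out P14 litter 1, limma called 5 of the 35 from P14 to P60, all higher at P60. It called 296 of the 11240 genes there, 106 of them higher.

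Those 5 genes were Evi2a, Septin4, Plekhb1, Ermn and Car2, and each is given here without P14 litter 1. Evi2a rose by 1.92 (adjusted p = 0.00939), Septin4, a septin of the inner myelin, by 1.28 (0.0175), and Ermn, a cytoskeletal protein of oligodendrocytes, by 0.93 (0.0323). For Evi2a, P14 litters 2 and 3 read 105 and 88.5, near the Bacillus level of 98.4 on chip A. These readings lay below the chip median of 207, so the size of that change depends on the constant. Plekhb1 rose by 0.90 (adjusted p = 0.0441) and Car2, a carbonic anhydrase of oligodendrocytes, by 0.62 (0.0384). With all litters their adjusted p were 0.172, 0.121, 0.163, 0.0592 and 0.0936 in the same order. Over all alternatives these ran from 0.00128 to 0.36, 0.00172 to 0.304, 0.00328 to 0.346, 0.00275 to 0.245 and 0.00628 to 0.319.

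Car2 was the most even of these between litters, with signals of 1503, 1651 and 1755 at P14, 2362, 2253 and 2347 at P28, and 2511, 2642, 2689 and 2730 at P60. Its 3 ages did not overlap, and P14 litter 1 lay at the low end. Further large changes from P14 to P60 that did not pass with all litters were those of Pllp, a proteolipid related to Mal, at 1.24 (adjusted p = 0.196), of Lpar1, a lysophosphatidic acid receptor whose P14 mean lay below the Bacillus level, at 1.20 (0.307), and of Apod, an apolipoprotein, at 1.05 (0.0835). P14 litter 1 read 89.3 for Pllp, below the Bacillus level of 153 on chip B, and without it the change of Pllp was 0.60 (adjusted p = 0.261). In the restricted set Lpar1 rose by 2.30 (adjusted p = 0.0103) and Apod by 1.28 (0.0307), and over all alternatives the adjusted p ran from 0.0103 to 0.54 and from 0.0158 to 0.259. For Lpar1 that set leaves out 200 in P14 litter 1, and 58.6 and 271 in P60 litters 1 and 4. P14 litters 2 and 3 read 36.8 and 36.4, below the constant. Every P14 reading of Lpar1 lay below the chip median, so it passed the filter through later arrays only. With all litters Myrf, which encodes the transcription factor that drives late myelin genes, stood at 0.66 (adjusted p = 0.283), Fa2h, which makes hydroxylated myelin lipids, at 0.64 (0.235) and Cntn2, an axonal and glial adhesion gene, at 0.68 (0.17). Below 0 were Olig1, a lineage transcription factor, at -0.66 (adjusted p = 0.373) and Nfasc, an adhesion gene of axons and glia, at -1.02 (0.136).

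Markers of other stages and cells were read beside these values. Of 9 tested oligodendrocyte progenitor genes 1 was above 0 from P14 to P60, with a median of -0.37. Limma called 0 of them, and 3 had an unadjusted p under 0.05, as did 3261 of all 20724 tested probe sets. The summed signal of the 13 progenitor genes on the arrays ran from 12146 to 14958 at P14, 11636 to 12577 at P28 and 8473 to 12199 at P60, and Cspg4, Sox5 and Lhfpl3 were below the Bacillus level at all ages. Of 13 tested cholesterol synthesis genes, which supply the main lipid of myelin, 7 were above 0 from P14 to P60 with a median of 0.03. Their summed signal was 9497 to 13895 at P14, 9656 to 10671 at P28 and 8867 to 9784 at P60, and with all litters limma called 0 of them, with 4 at an unadjusted p under 0.05. When P14 litter 1 was left out, 4 of the 13 were above 0 with a median of -0.13, and Sqle and Fdps, enzymes of the pathway, fell. That fit called 296 of the 11240 genes, 106 of them higher. In the restricted set Sqle alone of the 13 was called, where limma called 258 of the 11240.

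Markers of cells outside the oligodendrocyte lineage were summed in the same way. The summed signal of 4 blood cell genes was 5179 to 23796 at P14, 24366 to 33734 at P28 and 16886 to 50904 at P60. That of 5 choroid plexus genes was 148 to 218, then 305 to 419, then 438 to 552, with Kl and Kcne2 below the Bacillus level at all ages. Neuron markers (12 genes) summed to 57750 to 59311 at P14, 45844 to 53154 at P28 and 40574 to 51967 at P60. Microglia markers (10 genes, of which Aif1 and Itgam were below the Bacillus level) summed to 5058 to 6602, 6491 to 6965 and 5108 to 6697. Schwann cell and peripheral myelin markers (3 genes) summed to 2450 to 2698, 2100 to 3018 and 1994 to 2504. The part of other cells in the myelin values was not tested.

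The whole myelin and mature oligodendrocyte list, members included, was summed as well. Its 48 genes on the arrays summed to 57045 to 65438 at P14, 62016 to 78532 at P28 and 69473 to 75752 at P60. Cnp, Gpr37 and Olig2 were below the Bacillus level at all ages. Bright genes weigh most in this sum: Fth1 had means of 11900, 14020 and 14010 at the 3 ages, and Olig1 of 7377, 6421 and 4436. The highest P14 sum was that of P14 litter 1, in which Scd2 read 17113, against 8814 and 8482 in the other P14 litters. Of the 43 tested genes of the list 2, Mag and Ndrg1, were called from P14 to P60 with all litters. Limma called 55 of the 11240 genes there, 17 of them higher. The count was 12 when P14 litter 1 was left out, against 296 of all genes, and 10 in the restricted set, against 258.

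Tested genes other than the 8 members were ranked by how closely they followed the members' mean standardized profile over the 10 litters. The further genes of the myelin list were among those ranked. The closest were Lin28a (Pearson's r = 0.968), Tmem63a (0.959), an ion channel gene of oligodendrocytes, and Igfbp6 (0.946), which encodes a binding protein of insulin-like growth factors. They were followed by A830005F24Rik (0.944), Gab1 (0.942), Wnt10a (0.938), Ppm1f (0.934), Phlda3 (0.933), Git2 (0.924) and Dnajb3 (0.923). For comparison, the r of each member with a profile that includes it ran from 0.764 for Mag to 0.924 for Mal, and when P14 litter 1 was left out from 0.852 for Mbp to 0.96 for Mobp, with 0.953 for Mag. In that case Lin28a, Tmem63a and Igfbp6 had 0.967, 0.976 and 0.947, close to the highest members. Igfbp6 had mean signals of 323.5, 2164 and 2416 at the 3 ages and rose by 3.23 from P14 to P60 (adjusted p = 0.0222). Tmem63a rose by 1.70 (adjusted p = 0.0116) and Lin28a by 2.59 (0.0178), both from P14 means below the Bacillus level, so these sizes depend on the constant. Phlda3 rose by 0.89 (adjusted p = 0.0455). The ranking ran over 11232 genes, so high values among them are found by selection. The age changes of these genes come from the same litters that ranked them, so their calls are no separate support.

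The genes running most opposite to the myelin profile were Ncam1 (r = -0.961), a neural adhesion molecule, Ppp1r14c (-0.959), Ywhaz (-0.944), Cers5 (-0.944) and Cxadr (-0.925), another adhesion gene. Ncam1 had mean signals of 3310, 1673 and 1608 at the 3 ages and fell by 1.02 on the log2 scale from P14 to P60 (adjusted p = 0.0311). Cxadr went from 1714 to 487 and 478 and fell by 1.71 (adjusted p = 0.00937). These correlations rest on 10 litters that fall into age groups, and no test of likeness was made. The age changes of Ncam1 and Cxadr come from the same litters that ranked them.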

How the data were processed

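Labelled cRNA from V1 of 10 litters was hybridised to 3 Affymetrix array types (MG-U74Av2, Bv2 and Cv2), 1 array of each type per litter. The deposited values are MAS5 signal intensities on a linear scale, per the submitters' processing notes, which give no version. The tables held 36899 probe sets, and no probe-level data or detection calls were used. Every title opens with litter 1 and then gives an age and another litter number. The second number, which the source field repeats, was taken as the litter.

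Symbols came from the arrays' annotation table, updated through gene IDs in a RefSeq table, which matched for 99.9%, 99.7% and 99.5% of the symbols on chips A, B and C. Probe sets with 1 symbol numbered 10855, 10603 and 7739 on chips A, B and C, those with several, which were left unnamed, 396, 178 and 150, and those with none 1237, 1696 and 4045.

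Signals were analysed as log2(signal + the 20th percentile of the chip type). Probe sets above the chip median (207, 252 and 183) on at least 3 arrays were tested, leaving out 66 array controls per chip. Each chip type was fitted with limma 3.58.1 in R 4.3.3 (lmFit, eBayes with trend) on all 10 litters with age as the term, and p-values were adjusted by Benjamini-Hochberg over the 20724 tested probe sets. The code was tested on simulated data. Background was the 95th percentile of Bacillus control probe sets (98.4, 153 and 252). Precision is limited by the number of arrays. For values per gene, 1 probe set was kept, from chip A, else B, else C, with the highest mean log2 signal.

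All member probe sets are named. Other myelin genes are named if called in any comparison with all litters or without P14 litter 1, or if among the next 8 by size from P14 to P60, and 10 genes nearest and 5 farthest from the members' profile are named. The members, lists and tests were chosen with earlier results of these data known. The restricted set was chosen by the arrays' correlations. Alternatives were other constants, filters, scalings and variance models, each litter left out, only the compared ages, the restricted set and the replicate number as a block.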

Additional observations from a re-analysis of the deposited data

Results flagged for a closer look

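At P60, 1 of the 4 litters stood apart from the others on Mobp 106453_i_at. P60 litter 2 read 280 there, while the other litters read 347, 351 and 350, so that its gap to the nearest of them was 0.945 of the whole range, above Dixon's 95% critical value for 4 samples. On the log2 scale of the fit the probe set had no call in any of the 3 age comparisons with all litters. Chance flags about 1 in 20 such groups, and 19 groups, the P60 litters of each tested member probe set, were examined.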

How the results depend on the processing

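The number of member probe sets called depended on the litters and on the variance model. Between P28 and P60 it was 0 under every alternative run. Between P14 and P28, 0 with all litters, it was 12 with array weights, 9 in the restricted set and 0 to 2 when each litter was left out. Between P14 and P60, 4 with all litters, it was 2 without a filter and after median scaling, 11 with array weights, 8 in the restricted set, 0 with only the compared ages and 0 to 9 when each litter was left out. With the replicate number as a block (replicate block), it was 0, and that fit called 0 of all tested probe sets in each comparison. The moderated F test, 1 with all litters, gave 2 with the strictest filter, 0 after quantile normalization, median scaling and without a variance trend, 12 with array weights, 7 in the restricted set, 0 with the replicate block and 0 to 6 when each litter was left out. Same-numbered litters of different ages had correlations of their deviations from -0.08 to 0.16, so they share a number and were not paired. Array weights called 1163, 3621 and 3024 of all probe sets from P14 to P28, from P14 to P60 and in the F test, where the main values are 1, 82 and 23.

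Signs that turned were of changes with no call in the main fit. The largest of these in the main fit was -0.43, for Mobp 116999_at from P14 to P60. For Mag 161846_r_at they were 0.42 from P28 to P60 and 0.38 from P14 to P60. From P28 to P60 median scaling, which moved the median of all probe sets to -0.14, gave Mobp 100536_at -0.13, Ndrg1 160464_s_at -0.0093, Mbp 96310_at -0.093 and Mbp 96311_at -0.049. There the restricted set gave Mag 102405_at 0.035, Mag 161846_r_at -0.10, Mbp 166476_r_at 0.048, Mbp 96311_at -0.21, Mobp 99046_at -0.043, Mobp 99048_g_at 0.066 and Tspan2 138078_at 0.019. Array weights gave Mbp 96310_at -0.019, and the replicate block gave Mbp 96311_at -0.018. From P14 to P60 the restricted set gave Mag 161846_r_at -0.13 and Mobp 116999_at 0.15. The cause was not tested.

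When each litter was left out, these changes took both signs. From P28 to P60 the ranges were -0.20 to 0.10 for Mag 102405_at, -0.32 to 0.13 for Mbp 166476_r_at, -0.16 to 0.23 for Mbp 96310_at, -0.084 to 0.34 for Mbp 96311_at, -0.21 to 0.19 for Mobp 100536_at, -0.73 to 0.055 for Mobp 106452_s_at, -0.47 to 0.021 for Mobp 99048_g_at and -0.70 to 0.033 for Tspan2 138078_at. From P14 to P28 they were -0.25 to 0.13 for Mag 161846_r_at, -0.23 to 0.71 for Mobp 116999_at, -0.53 to 0.20 for Tspan2 138078_at and -0.57 to 0.14 for Olig1. From P14 to P60 they were -0.064 to 0.58 for Mobp 106452_s_at and -0.82 to 0.12 for Mobp 116999_at. After median scaling 13.3% of the calls from P14 to P60 were higher at P60, against 26.8% in the main fit.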
